A study of Mus musculus with 28 samples.

Results

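Endoderm of the mouse esophagus and of the mouse stomach was compared at embryonic day E11.5. The 6 arrays used, esophagus 1 to 3 and stomach 1 to 3, were taken by their titles from 28 arrays of the series. Each array held RNA from dissected organ domains of several pooled embryos, sorted by flow cytometry to isolate endoderm, in 3 biological replicates per organ. Amplified RNA was measured on the Illumina MouseRef-8 v2 platform, a bead array. Labels name no strain, genotype, sorting marker or treatment. The other 22 arrays, from E11.5 lung, liver, pancreas and intestine endoderm and from the E8.25 germ layers, entered the model only to estimate the spread, and the other organs are used below to show where a level is shared.

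The esophagus and the stomach arise next to each other from the foregut, and both start from an epithelium that expresses the transcription factor Sox2. The esophagus and forestomach later form a stratified epithelium with p63-positive basal cells, whereas the glandular stomach keeps a single layered, columnar epithelium. Factors of the Gata, Hnf4, Onecut and Foxa families are known for their part in gut epithelium of the simple type, and retinoic acid, Wnt, BMP, FGF, Notch and Hedgehog signals between epithelium and mesenchyme pattern the foregut.

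Levels are log2 normalized intensities of 1 probe per gene and are comparable between arrays but not between genes. Differences are esophagus minus stomach on the log2 scale, with the standard error (SE) of a limma model and p-values adjusted by Benjamini and Hochberg over the 9652 genes tested, with 3 arrays in each organ. A gene was called higher in an organ at an adjusted p under 0.05 and a difference of at least 1, which is 2-fold. An offset of 50 added to the intensities understates the change of dim genes. Probes were taken as detected where they exceeded the 99th percentile of the probes of sensory receptor genes on the same array. Where no array of the dimmer organ detected a probe, the size is given as "at least N-fold", the mean of the brighter organ against the mean, over the arrays of the dimmer one, of the higher of the detection threshold and the measured level. This bound allows for background and not for the spread between arrays. In sorted bulk tissue, fewer cells of a type and less RNA per cell cannot be told apart. With pools of embryos the p-values measure only the spread between samples. That spread was estimated over all 28 arrays, so an SE can be smaller or larger than the 6 arrays alone would give. For Upk1b the esophagus arrays had a standard deviation of 0.85, and the SE was 0.23. For Cdx2 the standard deviations were 0.03 in esophagus and 0.07 in stomach, and the SE was 0.30.

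Of the 9652 genes tested, 553 (5.73%) were called. The esophagus was higher for 322 (3.34%) and the stomach for 231 (2.39%). Counts of calls in the gene lists below are read against these shares. The 2 groups of 3 arrays did not overlap for 41.3% of all genes tested, with the esophagus above in 19.4% and the stomach above in 21.9%, so separation of the 6 values alone is common here and is read below against those shares. The median difference over all genes was -0.01. In 64 of the esophagus calls and 43 of the stomach calls the tested probe was undetected on all arrays of the dimmer organ, and for 1 of these, Muc1, another probe was detected there.

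**Figure D1:**
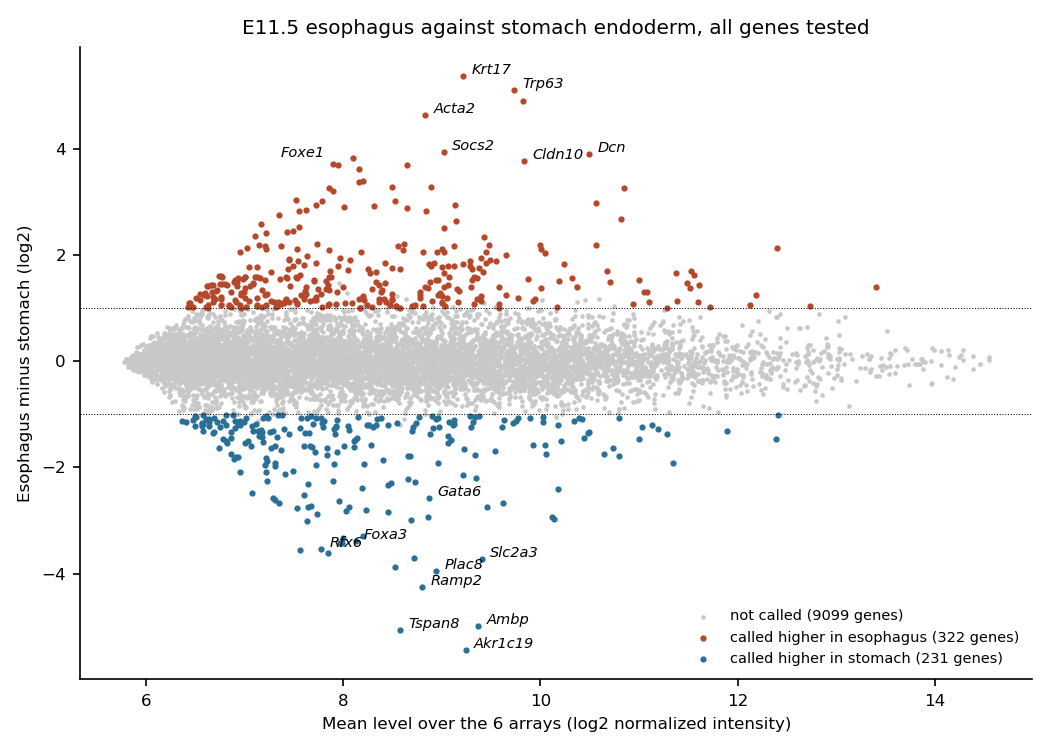
Esophagus minus stomach difference (log2, vertical axis) of each of the 9652 genes tested against its mean level over the 6 arrays (log2 normalized intensity, horizontal axis). Red points are the 322 genes called higher in esophagus, blue points the 231 called higher in stomach and grey points genes not called. Dotted lines mark a difference of 1 in size, and the largest differences lie above 5 on both sides.

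Arrays of the same organ resembled each other more than arrays of different organs. Over the genes tested, which do not count as independent replicates, Pearson's r was 0.963 to 0.995 within an organ and 0.927 to 0.948 between them. Stomach 1 stood apart from its group: its r with stomach 2 and 3 was 0.9695 and 0.9633, against 0.9945 between those 2. It also lacked any deposited intensity over 20000, like lung 1 and the liver and mesoderm arrays, while the other 5 arrays had such values. Without stomach 1, 458 genes were higher in esophagus and 259 in stomach. With these 2 classes of arrays as a block the counts were 484 and 268, and whether the class is technical was not tested. Without stomach 1, the calls included 294 of the 322 and 220 of the 231 genes called with it, and 0 called genes changed sign. Of the esophagus arrays, esophagus 3 was closest to each stomach array, at r of 0.9484, 0.9448 and 0.9402 with stomach 1 to 3. It lay nearest to the stomach mean for 303 of the 553 called genes, esophagus 1 for 158 and esophagus 2 for 92.

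Endoderm genes were detected in both organs. Of 10 tested genes that mark endoderm in general, 9 were detected on all 6 arrays, among them the gene of the epithelial adhesion molecule Cdh1, the pioneer factor genes Foxa1 and Foxa2 and the ligand gene Shh. Cdh1 measured 10.72, 10.59 and 10.68 in esophagus 1 to 3 and 10.76, 10.28 and 10.18 in stomach 1 to 3, and the groups overlapped (0.26 ± 0.25, adjusted p = 0.530). Foxa2 stood at 9.07, 9.27 and 9.35 in the esophagus against 8.63, 8.56 and 8.60 in the stomach, and Shh at 11.95, 11.95 and 12.20 against 10.81, 11.37 and 11.43. Both were above the stomach on every esophagus array but below the 2-fold limit, with differences of 0.64 ± 0.19 for Foxa2 and 0.83 ± 0.20 for Shh. A second Shh probe, not the one tested, gave 10.87, 10.80 and 11.06 against 10.02, 9.54 and 9.48, a difference of 1.23, which is over 2-fold. Foxa1 lay the other way, at 10.58 to 11.30 in the esophagus against 11.39 to 11.53 in the stomach (-0.62 ± 0.39, adjusted p = 0.298). Epcam had no tested probe and was not analysed here.

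Sox2, the factor shared by both foregut domains, was detected on all 6 arrays and also on the 3 lung arrays, at a lung mean of 7.54. No liver, pancreas or intestine array detected the tested probe. The tested probe measured 9.08, 9.14 and 9.96 in esophagus 1 to 3 and 8.62, 8.55 and 8.48 in stomach 1 to 3. The groups did not overlap, but the difference of 0.84 ± 0.26 (adjusted p = 0.0223) was under 2-fold, so no call was made. A second Sox2 probe gave 9.68, 10.32 and 9.78 against 9.92 in stomach 1, 7.46 in stomach 2 and 7.11 in stomach 3. On that probe stomach 1 lay among the esophagus arrays, and with it as the gene's probe the difference was 1.77 (adjusted p = 0.0122) and was called. Lung 1 departed from lung 2 and 3 in the same way on that probe, at 8.19 against 6.67 and 6.39. The related gene Sox21, named after its values were seen, stood at 12.80, 12.87 and 12.76 against 12.10, 12.32 and 12.13 (0.63 ± 0.46, adjusted p = 0.392).

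The largest differences toward the esophagus were in genes of the basal layer of stratified epithelia. Trp63, which encodes the p63 transcription factor of basal cells, measured 12.47, 12.25 and 12.14 in the esophagus and 6.88, 7.26 and 7.38 in the stomach. The basal keratin gene Krt17 stood at 12.15, 12.44 and 11.13 against 6.24, 6.64 and 6.71, and Krt15 at 12.76, 12.64 and 11.42 against 7.02, 7.45 and 7.65. All 3 esophagus arrays exceeded every stomach array by far in these genes, with esophagus 3 the lowest for both keratins. The differences were 5.38 ± 0.22 for Krt17 (adjusted p = 2.43e-14), 5.12 ± 0.29 for Trp63 (adjusted p = 3.2e-12) and 4.90 ± 0.24 for Krt15 (adjusted p = 2.95e-13), which is 41.6-fold, 34.7-fold and 29.8-fold. Col17a1, the hemidesmosome collagen that ties basal cells to the basement membrane, was detected on every esophagus array (10.19, 10.21 and 8.96) and on no stomach array, and was at least 10.6-fold higher. Krt5, the partner keratin of Krt14 in basal cells, was also undetected in the stomach and stood at 7.86, 7.69 and 7.06 in the esophagus, at least 2.23-fold higher.

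Stratified epithelium genes as a list held 17 tested members, of which 12 were called higher in esophagus and 0 in stomach, with a median difference of 1.71 against -0.01 over all genes. The 7 called members not yet described, named after their values were seen, were Sfn (at least 5.10-fold, undetected in the stomach), Itgb4 (2.35), Fermt1 (2.18), Krt14 (2.12), Dst (1.71), Bnc1 (1.56) and Lamb3 (1.11). Itgb4, Dst and Lamb3 encode parts of the hemidesmosome and its laminin ligand, and Sfn the 14-3-3 sigma protein of stratified epithelia. The 5 tested members not called were Aqp3 (0.43), Pkp1 (0.34), Itga6 (0.08), Dsg2 (-0.24) and Gsta4 (-0.92). Of the 25 members on the array, 7 were detected on none of the 3 esophagus arrays. The summed level of the list was 14.03 to 14.75 in the esophagus and 12.11 to 12.32 in the stomach.

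Keratins of simple epithelia went the other way or did not differ. Krt18 stood at 9.76, 9.93 and 9.61 in the esophagus and 11.77, 11.36 and 11.41 in the stomach, a difference of -1.75 ± 0.26 (adjusted p = 1.46e-05). Its partner Krt8 measured 12.03, 11.96 and 11.72 against 13.08, 12.80 and 12.88 (-1.02 ± 0.19, adjusted p = 3.92e-04), and its call was lost without stomach 1, at -0.94. Both were called, without overlap, while the other 4 of the 6 tested keratins of the list, Krt7, Krt19, Krt20 and Krt23, were not, and the list median was -0.03. Of 28 tested epithelial junction genes, 1 was called higher in esophagus and 0 in stomach, near the 3.34% and 2.39% of all genes. Without overlap, 6 members lay above the stomach and 8 below it, near the 19.4% and 21.9% of all genes. Their median was -0.06. The call was Cldn10, which encodes a claudin of paracellular ion channels and stood at 11.66, 12.18 and 11.32 against 7.38, 8.17 and 8.27 (3.78 ± 0.32, adjusted p = 3.63e-09).

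**Figure D2:**
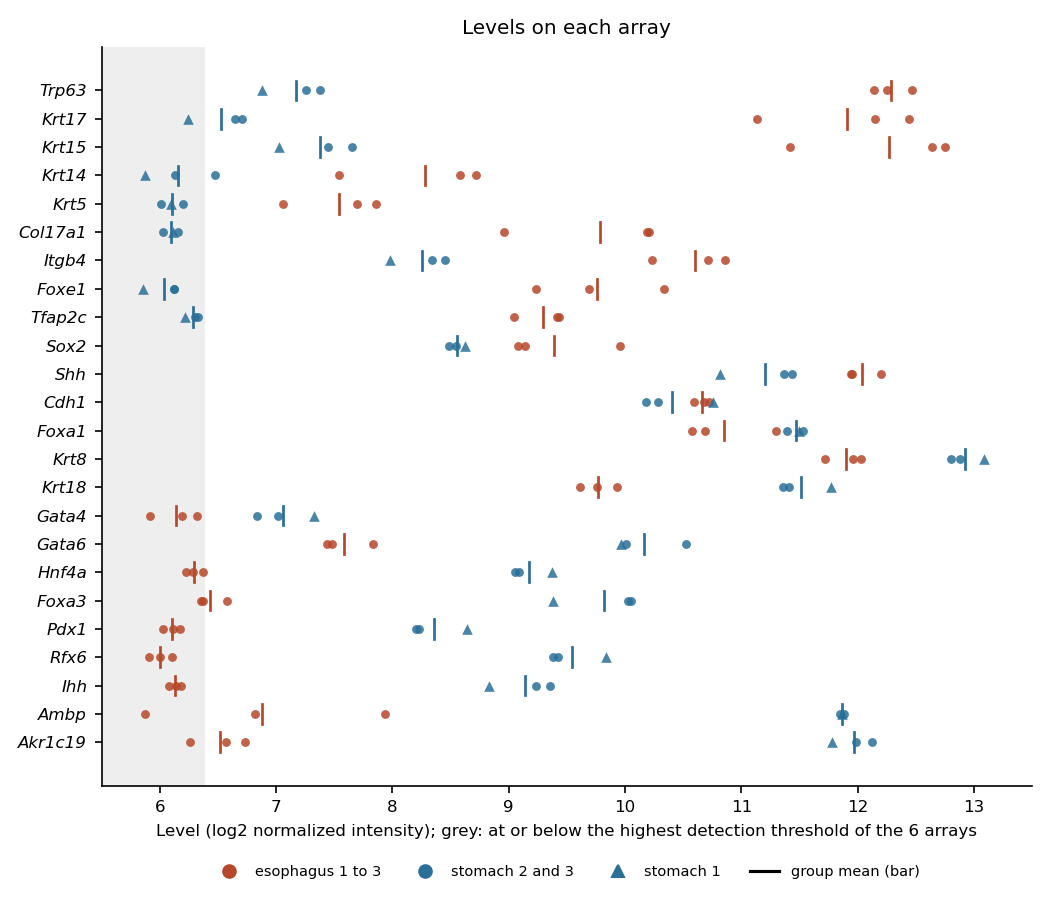
Level (log2 normalized intensity, horizontal axis) of 24 genes (rows) on each array. Red points are esophagus 1 to 3, blue points stomach 2 and 3, the blue triangle stomach 1, vertical bars group means, and the grey band marks levels at or below the highest detection threshold of the 6 arrays. Trp63, Krt17 and Krt15 are far to the right in esophagus, Ambp and Akr1c19 in stomach, and the groups overlap for Cdh1.

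A list of transcription factors of the anterior foregut and pharynx, which also holds factors of surface ectoderm and keratinocytes, gave the next group. Foxe1, a forkhead factor of pharyngeal endoderm and thyroid, measured 10.34, 9.69 and 9.23 in the esophagus and was detected on no stomach array, at least 10.4-fold higher. Tfap2c, an AP-2 factor of surface ectoderm, stood at 9.43, 9.42 and 9.04 and was likewise undetected in the stomach, at least 7.57-fold higher. Further Tfap2c probes, also undetected in the stomach, gave differences of 0.64 and 2.06. Zfp750, a factor of terminal keratinocyte differentiation, measured 8.27, 8.51 and 7.27 and was at least 3.11-fold higher. All 3 separated the organs completely, and Foxe1 was detected on no array of the other 4 organs either. Of 18 tested members of this list 7 were called higher in esophagus and 0 in stomach, with a median of 0.64. The other calls were Nfib (1.94), Dlx3 (1.69), Tfap2a (at least 2.27-fold) and Pitx1 (1.14), the last 3 of these named after their values were seen.

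Further leading esophagus genes had other roles. The nuclear factor I gene Nfix measured 10.00, 10.32 and 9.38 against 6.19, 6.66 and 6.65 in the stomach (3.40 ± 0.20, adjusted p = 6.06e-12). Socs2, a feedback inhibitor of cytokine signalling, stood at 11.09, 10.95 and 10.91 against 7.24, 6.95 and 6.96 (3.94 ± 0.21). The zinc finger gene Osr2, undetected in the stomach, stood at 9.61, 9.35 and 9.52 and was at least 8.66-fold higher. The groups were far apart in each case. Uroplakins, membrane proteins of the urothelium, and the caveolar coat gene Cav1 were also undetected on all stomach arrays. Upk1b measured 10.97, 9.37 and 9.68 (at least 12.4-fold higher), Upk2 9.20, 9.50 and 8.90 (at least 7.08-fold) and Cav1 9.46, 9.28 and 8.38 (at least 6.34-fold). The lipid transfer protein gene Pltp (3.63 ± 0.17), Trim29 (3.38 ± 0.22) and Sertad4 (3.28 ± 0.22) completed the 12 largest differences that were measured on both sides. Second probes, undetected in the stomach, gave 0.48 for Nfix, 1.12 for Pltp, 2.57 for Trim29 and 1.75 for Sertad4.

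Several transcription factors known from gut epithelium of the simple type were higher in the stomach, though other members of their families, Foxa1, Foxa2 and Gata4, were not called. Gata6, a zinc finger factor of endoderm, measured 9.96, 10.53 and 10.00 in stomach 1 to 3 and 7.83, 7.48 and 7.44 in esophagus 1 to 3 (-2.58 ± 0.15, adjusted p = 3.2e-12). Hnf4a, a nuclear receptor of liver and gut epithelium, stood at 9.37, 9.05 and 9.09 against 6.29, 6.22 and 6.37 (-2.88 ± 0.25, adjusted p = 4.89e-09). Foxa3, the third of the Foxa pioneer factors, measured 9.38, 10.03 and 10.05 against 6.35, 6.37 and 6.58 (-3.39 ± 0.21, adjusted p = 1.93e-11). No esophagus array reached a stomach array for these, and Hnf4a was near its detection threshold in the esophagus, passing it on 2 of 3 arrays. The cut homeobox factor gene Onecut2 stood at 9.26, 8.66 and 9.13 against 6.26, 6.23 and 6.33 (-2.75 ± 0.37, adjusted p = 4.01e-06).

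Gata4, which is known for its role in the glandular stomach, was dim on this array. It measured 7.33, 6.84 and 7.02 in stomach 1 to 3 and 6.19, 6.32 and 5.91 in the esophagus, where 1 of 3 arrays detected it. The groups did not overlap, but the difference of -0.92 ± 0.19 (adjusted p = 8.04e-04) was under 2-fold and was not called. With an offset of 16 it was called, at -1.46. The list of stomach and posterior foregut factors had 24 tested members, of which 8 were called higher in stomach and 3 higher in esophagus, with a median of -0.72. Besides Gata6, Hnf4a, Foxa3 and Onecut2, the stomach calls were Onecut3 (at least 2.09-fold), Gata5 (at least 1.84-fold), Elf3 (-1.07) and Osr1, at the 2-fold limit, of which the first 3 were named after their values were seen. The 3 members higher in esophagus were the forkhead gene Foxq1 (2.19 ± 0.21), Sox9 (1.06 ± 0.14) and Tox3 (1.04). Calls for Sox9 and Osr1 were lost without stomach 1, at 0.92 and -0.76, and the call for Tox3 without stomach 3, at 0.70. Further probes of Elf3 gave -0.38 and, on a probe detected on all 6 arrays, -0.19.

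The largest fitted stomach differences were in the genes of an aldo-keto reductase, a tetraspanin and the plasma protein Ambp. Akr1c19 measured 11.78, 12.12 and 11.99 in the stomach and 6.73, 6.26 and 6.57 in the esophagus (-5.45 ± 0.24, adjusted p = 4.63e-14, 43.6-fold). Tspan8, the tetraspanin, stood at 11.58, 11.11 and 10.63 and was detected on no esophagus array, at least 28.2-fold higher. Akr1c12 (-3.87 ± 0.42) belongs with Akr1c19 to a cluster of close gene copies, so signal may be shared between their probes. Ambp, the precursor of alpha-1-microglobulin and bikunin, measured 11.86, 11.85 and 11.88 in the stomach against 6.82, 5.87 and 7.94 in the esophagus (-4.99 ± 0.28, adjusted p = 3.2e-12). Stomach values of Ambp were nearly equal, and the spread lay in the esophagus, where esophagus 3 was highest. Ramp2, a receptor partner of adrenomedullin signalling (-4.25 ± 0.33), Plac8 (-3.95 ± 0.30) and the glucose transporter gene Slc2a3 (-3.72 ± 0.37), with Rcan2 (-3.42 ± 0.18) and Adcy8 (-3.33 ± 0.19), were also among the 12 largest stomach differences measured on both sides. Further Rcan2 probes, undetected in the esophagus, gave -1.92 and -0.86. The array esophagus 3 was highest in the esophagus for Ttr, the thyroid hormone carrier transthyretin, at 6.44, 6.18 and 7.99 against 10.69, 10.39 and 10.63 in the stomach (-3.70 ± 0.38), and for Serpina1b at 6.43, 6.17 and 7.07 against 9.65, 9.66 and 10.25 (-3.30 ± 0.26).

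As a list, 28 plasma protein and liver genes were tested, and 7 were higher in stomach and 0 in esophagus, with a median of -0.05. The 7 were Ambp, Ttr, Serpina1b, Serpina1d (-2.10), Apoa1 (-1.71), Serpina1a (at least 2.46-fold) and Vtn (-1.07), the last 3 outside the rule for named genes and named after their values were seen. Serpina1a, Serpina1b and Serpina1d are near-identical copies whose signals cannot be assigned to 1 gene with certainty. Other members did not move with these, such as Afp (0.22), Apoe (-0.03) and Trf (-0.21), also chosen after their values were seen. The summed level of the list was 13.98 to 14.16 in the stomach and 12.91 to 13.19 in the esophagus, and the part of liver cells in the stomach calls was not tested. Cpn1, a plasma carboxypeptidase subunit outside the list, stood at 9.10, 9.95 and 10.02 in the stomach and 6.04, 6.30 and 6.43 in the esophagus (-3.43 ± 0.19). The hyaluronan-binding protease gene Habp2 was at least 10.3-fold higher in the stomach. Further Habp2 probes, undetected in the esophagus, gave -0.96 and -2.77.

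Promoters of 4 of these stomach genes and of 2 basal epithelium genes are shown as examples, which do not stand for their groups. They run from 250 bases before to 50 bases after the start of the gene, 5′ to 3′ on the strand of the gene, in the RefSeq table of build GRCm38.p6. Capitals mark forms of the forkhead motif bound by Foxa factors, searched on both strands. These were TGTTTGC, the form TGTTTAC and the form TATTTAC, or their reverse complements.
Ambp, chr4:63154123-63154422, - strand: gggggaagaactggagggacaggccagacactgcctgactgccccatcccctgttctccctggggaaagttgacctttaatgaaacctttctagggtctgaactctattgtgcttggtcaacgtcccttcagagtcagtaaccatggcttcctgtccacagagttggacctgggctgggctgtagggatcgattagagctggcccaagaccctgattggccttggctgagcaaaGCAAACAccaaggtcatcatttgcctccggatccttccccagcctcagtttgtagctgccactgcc
Serpina1b, chr12:103738140-103738439, - strand: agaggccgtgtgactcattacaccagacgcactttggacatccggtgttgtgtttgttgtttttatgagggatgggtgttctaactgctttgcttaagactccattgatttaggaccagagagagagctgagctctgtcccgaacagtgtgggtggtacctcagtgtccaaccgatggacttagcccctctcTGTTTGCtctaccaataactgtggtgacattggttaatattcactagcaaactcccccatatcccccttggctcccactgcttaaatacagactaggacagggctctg
Cpn1, chr19:43986471-43986770, - strand: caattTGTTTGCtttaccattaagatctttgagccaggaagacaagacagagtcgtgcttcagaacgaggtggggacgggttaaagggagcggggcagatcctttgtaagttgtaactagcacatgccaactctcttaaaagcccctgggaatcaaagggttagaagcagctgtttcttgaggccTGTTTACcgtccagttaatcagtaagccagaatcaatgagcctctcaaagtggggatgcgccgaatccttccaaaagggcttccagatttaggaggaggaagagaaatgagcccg
Apoa1, chr9:46228380-46228679, + strand: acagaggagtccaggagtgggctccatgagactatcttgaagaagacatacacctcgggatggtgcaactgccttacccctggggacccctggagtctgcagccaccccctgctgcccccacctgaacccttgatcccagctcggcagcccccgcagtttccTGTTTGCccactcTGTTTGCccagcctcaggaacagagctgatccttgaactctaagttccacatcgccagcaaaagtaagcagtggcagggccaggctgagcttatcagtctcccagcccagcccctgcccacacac
Col17a1, chr19:47691993-47692292, - strand: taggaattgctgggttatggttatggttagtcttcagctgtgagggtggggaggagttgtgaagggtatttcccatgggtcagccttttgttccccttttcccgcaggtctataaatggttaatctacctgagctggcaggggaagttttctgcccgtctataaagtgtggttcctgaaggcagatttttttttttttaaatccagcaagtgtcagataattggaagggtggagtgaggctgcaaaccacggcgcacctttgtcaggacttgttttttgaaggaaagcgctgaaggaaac
Krt14, chr11:100205981-100206280, - strand: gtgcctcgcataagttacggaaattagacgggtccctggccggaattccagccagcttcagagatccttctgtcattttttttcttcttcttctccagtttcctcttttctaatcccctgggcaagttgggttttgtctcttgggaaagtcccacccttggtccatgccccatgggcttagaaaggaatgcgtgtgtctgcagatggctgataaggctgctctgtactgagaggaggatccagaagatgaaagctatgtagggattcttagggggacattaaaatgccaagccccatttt
Cpn1 and Apoa1 held 2 matches each, Ambp and Serpina1b 1 each, and these letters are not in the windows of Col17a1 and Krt14. The first 4 were picked because they hold the motif, and Col17a1 and Krt14 were also picked by hand. Neither the matches nor their absence is a count. Over all called genes with a promoter in the table, the motif was in 15.2% of 224 promoters of stomach genes, in 11.7% of 316 promoters of esophagus genes, in 7.78% of 10083 promoters of genes tested and in 11.2% of all 32851 promoters. For GATA sites (AGATAA, the form TGATAA or the form AGATAG) the shares were 21.0%, 15.2%, 15.7% and 25.1% in the same order, and for GCCNNNGGC of AP-2 sites 19.6%, 28.5%, 25.0% and 16.6%. HNF4 sites (CAAAGTCCA or the form CAAAGTTCA) were in 0.446%, 0.949%, 0.714% and 0.861%, or 1 stomach and 3 esophagus promoters. HNF1 sites were in 2.23%, 0.316%, 0.288% and 0.399%, or 5 stomach and 1 esophagus promoters. These shares are descriptions of letters and do not show binding.

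Genes of gastric, intestinal, pancreatic and endocrine epithelium were called toward the stomach or not at all. Of 11 tested gastric differentiation genes 4 were higher in stomach and 0 in esophagus, with a median of -0.65. Vsig2, a membrane protein with immunoglobulin domains, measured 8.68, 9.10 and 8.98 and was undetected in the esophagus, at least 6.19-fold higher. A second Vsig2 probe, also undetected in the esophagus, gave -1.12. Clic6, a chloride intracellular channel protein gene, stood at 11.07, 11.54 and 11.52 against 9.15, 8.97 and 8.81 (-2.40 ± 0.23), and the carbonic anhydrase gene Car2 was at least 2.41-fold higher. The mucin gene Muc1 stood at 7.68, 8.43 and 8.46 in the stomach and was undetected in the esophagus on the tested probe (-1.96 ± 0.19), but another probe was detected on all 6 arrays and gave -1.23, so no bound is given. Of the 27 members on the array, 16 were detected on none of the 6 arrays, including the pepsinogen gene Pgc, both proton pump genes Atp4a and Atp4b, and the gastrin gene Gast.

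Among 14 tested genes of the intestine, 4 were called higher in stomach and 0 in esophagus, with a median of -0.51. They were Tm4sf5 (at least 2.72-fold, undetected in the esophagus), the galectin gene Lgals4 (-1.32 ± 0.20), the actin bundling protein gene Espn (-1.15) and Hkdc1 (-1.10). Espn was no longer called without stomach 1, at -0.93. Cdx2, the intestinal homeobox factor, stood at 6.58, 6.44 and 6.51 in the stomach, undetected in the esophagus, and the difference of -0.55 ± 0.30 (adjusted p = 0.221) was not called. The groups did not overlap, and all 3 stomach arrays detected the probe, close to their detection thresholds of 6.37, 6.37 and 6.39. On the same probe the intestine measured 12.24, 12.13 and 11.99. Pdx1, a homeobox factor of pancreas, duodenum and distal stomach, stood at 8.64, 8.20 and 8.23 in the stomach and was undetected in the esophagus, a bound of at least 4.18-fold. Pancreas arrays reached 10.01 to 10.93 on that probe, and the intestine mean was 6.89. Ptf1a, the acinar and pancreatic progenitor factor, was detected on none of the 6 arrays, and Pdx1 was the 1 call among 9 tested pancreas genes.

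The endocrine list had 15 tested members with 2 stomach calls, against 2.39% of all genes, and a median of -0.24. Rfx6, a factor of islet and gut endocrine development that is also expressed in early gut endoderm, measured 9.84, 9.38 and 9.42 and was detected on no esophagus array, at least 9.55-fold higher. The hormone gene Pyy was at least 1.67-fold higher and lost its call without stomach 3, at a fitted -0.83. Neurog3, the factor that starts the endocrine lineage, and the granule genes Chga and Chgb were detected on none of the 6 arrays. Nepn, a proteoglycan gene known from gut endoderm, stood at 11.08 in stomach 1 but 8.55 and 8.38 in stomach 2 and 3, and was undetected in the esophagus, at least 8.26-fold higher in the stomach. That size rests on stomach 1: the fitted difference, which is no bound, went from -3.56 to -2.69 without it.

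Signalling genes differed member by member, and their counts stand beside 3.34% of all genes called higher in esophagus and 2.39% in stomach. In the Hedgehog list 1 of 10 tested genes was called: Ihh, the second Hedgehog ligand of the gut, measured 8.83, 9.23 and 9.36 in the stomach and was undetected in the esophagus, at least 7.20-fold higher. Shh lay toward the esophagus, as given above, and the receptor gene Ptch1 (-0.10) and the transducer Smo (-0.04), chosen after their values were seen, did not pass the test. Of 40 tested Wnt genes 7 were higher in esophagus and 2 in stomach, with a median of 0.24. The co-receptor gene Kremen2 (2.12 ± 0.27), the ligand gene Wnt4 (1.93 ± 0.16), the receptor gene Fzd10 (1.80 ± 0.27) and the secreted inhibitor gene Sfrp2 (1.43 ± 0.29) led toward the esophagus. Toward the stomach were Sp5, a target gene of canonical Wnt signalling, at 9.78, 10.03 and 9.95 against 7.70, 7.52 and 8.80 (-1.91 ± 0.28), and the receptor gene Fzd7 (-1.03 ± 0.20).

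Of 31 BMP and TGF-beta genes tested, 3 were higher in esophagus and 2 in stomach, against 3.34% and 2.39% of all genes. Their median was -0.01. Bmp4, a ligand of foregut patterning, measured 8.77, 8.70 and 8.41 in the esophagus and 6.32, 6.80 and 6.82 in the stomach (1.98 ± 0.21, adjusted p = 1.19e-07). The activin subunit gene Inhbb (2.10 ± 0.12) and the receptor gene Acvr1 (2.82-fold) were higher with it. Id4, an inhibitor of basic helix-loop-helix factors, went the other way, at 7.73, 7.39 and 7.52 in the esophagus and 10.23, 9.68 and 9.40 in the stomach (-2.22 ± 0.21), as did the receptor gene Bmpr1b (-1.23 ± 0.18). In the FGF list of 21 tested genes 2 were called in each direction. The ETS factor genes Etv4 and Etv5, which are known as targets of FGF signalling, were the stomach pair, with Etv4 at 8.15, 8.75 and 8.68 against 6.48, 6.51 and 6.37 (-2.08 ± 0.34) and Etv5 at -1.33 ± 0.20. Fgf13 (1.83 ± 0.16) and Flrt2 (1.35 ± 0.28) were higher in the esophagus. A second Fgf13 probe, detected on all 6 arrays, gave 0.35.

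Among 19 tested Notch genes 4 were called higher in esophagus and 0 in stomach, against 3.34% and 2.39% of all genes. Their median was 0.22. The calls were the target and feedback gene Nrarp (1.80 ± 0.17), the target gene Hey1 (1.31 ± 0.15) and the ligand genes Jag1 (1.26 ± 0.26) and Jag2 (1.15 ± 0.11). Nrarp measured 10.01, 10.45 and 10.09 against 8.15, 8.46 and 8.53, without overlap. For Jag1 the stomach arrays differed, at 7.30 in stomach 1 and 6.28 in stomach 2, with stomach 3 close to the latter, all below the 7.88, 7.83 and 7.85 of the esophagus. Of 13 retinoic acid genes 3 were higher in esophagus and 0 in stomach, with a median of -0.01: the synthesis enzyme gene Aldh1a1 (1.63 ± 0.20) and the receptor genes Rarb (1.17 ± 0.31) and Rarg (1.09 ± 0.11). Rarb missed the call without stomach 3, at 0.99 and an adjusted p = 0.0539, and 2 further probes of Rarb gave 0.13 and 0.58.

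Hox genes, whose order in the cluster follows their order along the body axis, were mostly called at the anterior end of the clusters. Of 9 tested genes of groups 1 to 4, 5 were higher in esophagus and 0 in stomach, with a median of 1.03. They were Hoxb4 (1.80 ± 0.25), Hoxb3 (1.74 ± 0.26), Hoxb2 (1.34 ± 0.27), Hoxa2 (1.06 ± 0.19) and Hoxa4 (1.03), the last one named after its values were seen. Hoxb4 measured 9.87, 10.00 and 10.21 against 8.58, 8.34 and 7.77. Among groups 5 to 8, 1 of 8 was called and the median was -0.10: Hoxc6 stood at 10.10, 10.59 and 10.80 in the esophagus and 6.28, 7.09 and 7.02 in the stomach (3.70 ± 0.43, adjusted p = 4.83e-07). For groups 9 to 13, limma called 0 of 7 tested genes, and 0 had an unadjusted p under 0.05. Of the 16 genes of these groups on the array, 14 were undetected in the esophagus and 14 in the stomach.

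**Figure D3:**
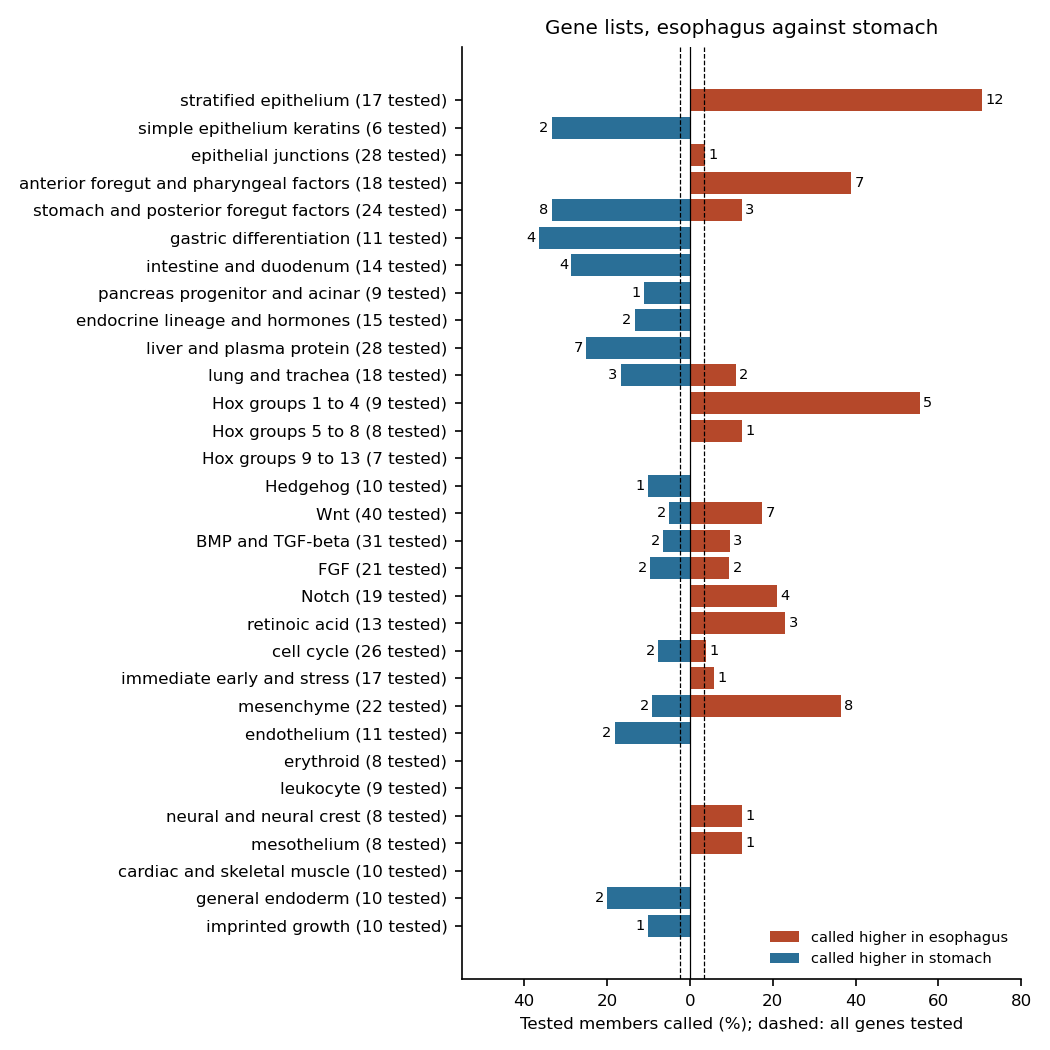
Share of the tested members of 31 gene lists (rows, with the number tested) called higher in stomach (blue bars, to the left) and higher in esophagus (red bars, to the right), in percent, with the number of genes at the bar ends. Dashed lines are the shares over all genes tested, 2.39% and 3.34%. Stratified epithelium reaches furthest to the right, with 12 of 17.

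An unadjusted limma p under 0.05 was common, with 3000 of all 9652 genes tested in either direction. Where limma called 0 members of a list in 1 direction, some had such a p there. Toward the stomach these were 8 epithelial junction genes, 2 genes each of the anterior foregut, Hox groups 5 to 8, Notch, retinoic acid and stress lists, and 1 each of the stratified epithelium (Gsta4), neural and mesothelium lists, with 0 for Hox groups 1 to 4. Toward the esophagus they were 2 each of the pancreas, Hedgehog and general endoderm lists and 1 imprinted gene, with 0 for the simple keratin, gastric, intestinal, endocrine, plasma protein and endothelium lists. For Hox groups 9 to 13 and the erythroid, leukocyte and muscle lists the number was 0 in both directions.

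Genes of the lung and trachea domain, which lies next to the esophagus, gave 2 esophagus calls and 3 stomach calls among 18 tested. Over all genes the shares were 3.34% and 2.39%. The list median was -0.01. Nkx2-1, the defining factor of lung and trachea, was low in the esophagus, at 6.97 to 7.35, and undetected in the stomach. Its difference of 1.00 ± 0.23 (adjusted p = 0.00272) fell short of the limit before rounding and was called without stomach 1, at 1.03. The lung arrays measured 12.71, 11.64 and 11.65 on that probe. Cbr2, a carbonyl reductase of airway cells, was detected on the esophagus arrays at 8.78, 8.70 and 7.79 and on no lung or stomach array, at least 4.13-fold higher. The chemokine receptor gene Cxcr4 (-1.78 ± 0.15) was a stomach call with Etv4 and Etv5.

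Genes of mesenchyme were detected in both sorted samples and more of them in the esophagus. Among the 22 tested, 8 were higher in esophagus (against 3.34% of all genes) and 2 in stomach, with a median of 0.55. Acta2, the smooth muscle actin gene, measured 11.84, 11.60 and 10.02 in the esophagus and 5.89, 6.90 and 6.74 in the stomach (4.64 ± 0.43, adjusted p = 1.1e-08). The small proteoglycan gene Dcn stood at 12.25, 12.43 and 12.66 against 7.82, 9.05 and 8.75 (3.90 ± 0.29), and Actg2, the enteric smooth muscle actin gene, at 9.62, 9.54 and 7.95 and undetected in the stomach (at least 6.32-fold). Further Acta2 probes, undetected in the stomach, gave 0.55, 0.94 and 2.04, and a second Dcn probe 3.51. Esophagus 3 was the lowest esophagus array for both actins, and stomach 1 the lowest stomach array for Acta2 and Dcn. Col6a1 (at least 2.69-fold), Col1a1 (at least 1.99-fold) and Lum (at least 1.81-fold), undetected in the stomach, and Col3a1 (1.13) and Twist1 (1.05) were the other calls, all but Col6a1 named after their values were seen. The stomach was higher for Barx1, the homeobox factor of stomach mesenchyme, at 7.17, 7.94 and 8.24 against 6.40, 6.22 and 6.24 (-1.50 ± 0.18), and for Osr1.

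The summed level of the mesenchyme list was 13.41 to 13.73 in the esophagus and 11.46 to 11.77 in the stomach. Of its 28 members on the array, 16 were detected on all esophagus arrays and 7 on all stomach arrays, and Col1a2, Postn, Tbx4, Tbx5, Nkx3-2, Hand2 and Tagln on none of the 6. Higher in the esophagus than in the stomach, the summed level shares its direction with all genes called toward the esophagus. Among these are anterior Hox, Wnt, BMP, retinoic acid and uroplakin genes, and the part of mesenchyme in those calls was not tested. Among other cell types, limma called 0 of 9 leukocyte, 0 of 8 erythroid and 0 of 10 muscle genes, against 5.73% of all genes. Of these list members, 0 had an unadjusted p under 0.05. Only 2, 4 and 1 of them, in that order, were detected on all arrays of the esophagus or of the stomach. The counts therefore say little about these cell types. Of 11 tested endothelial genes, Egfl7 (-1.21 ± 0.30) and Esam (-1.01 ± 0.24) were higher in stomach, against 2.39% of all genes. Pecam1, Cdh5 and Kdr were detected on none of the 6 arrays. Of 8 mesothelial genes 1 was called, Upk1b, and of 8 neural genes 1, the endothelin receptor gene Ednrb (1.27). Both lay toward the esophagus, where 3.34% of all genes were called.

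Of 26 tested cell cycle genes 3 were called, against 5.73% of all genes in either direction. Toward the stomach 10 had an unadjusted limma p under 0.05, which 3000 of all 9652 genes tested had in either direction. The cyclin gene Ccnd2 was higher in esophagus (1.04 ± 0.36, adjusted p = 0.0435), and the inhibitor gene Cdkn1a (-1.49 ± 0.23) and the mitotic kinase gene Plk1 (-1.21 ± 0.26) in stomach, with a median of -0.21. Ccnd2 missed the call under several settings, at adjusted p = 0.212 without stomach 3. In the immediate early and stress list 1 of 17 was called, close to the share of all genes: Ddit4 (1.68 ± 0.22) toward the esophagus. Fos, chosen after its values were seen, varied widely among the esophagus arrays, at 9.70, 8.58 and 7.82 against 7.16, 6.87 and 7.62, and was not called (adjusted p = 0.105). Of 10 tested imprinted growth genes Peg3 alone was called, at 7.60, 7.28 and 7.91 in the esophagus and 10.19, 10.00 and 9.41 in the stomach (-2.27 ± 0.41, adjusted p = 1.92e-04).

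The levels in the other E11.5 organs placed the 2 sets of calls differently. Of the 322 genes higher in esophagus, 260 (80.7%) had their highest mean in the esophagus among the 6 organs, against 22.3% of all genes tested. Of the 231 genes higher in stomach, 98 (42.4%) were highest in the stomach, against 10% of all genes, while 45 were highest in intestine, 36 in pancreas, 35 in liver and 17 in lung. The esophagus and stomach cannot be highest in the set called against them, so these shares follow in part from the calls and are a description. Stomach genes were detected on all arrays of the intestine in 83.5% of cases and of the pancreas in 65.4%, against 69.2% and 52.9% of all genes. For lung the shares were 77.9% and 77.2%, and for liver 70.6% and 78.4%. Each share requires detection on all arrays of an organ, so a single array with few detected probes lowers it. Pancreas 3 detected 7080 probes, against 11773 to 12866 on the other pancreas arrays. Intestine 3 detected 9663, against 11994 on intestine 1 and 10832 on intestine 2. How far pancreas 3 and intestine 3 set the shares of their organs was not tested.

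Single genes show this in their levels. Trp63 had a mean of 12.29 in the esophagus and next stood at 7.80 in lung, 7.17 in stomach and 7.10 in pancreas, whereas liver and intestine arrays did not detect it. Nfix was at 9.90 in the esophagus and at 6.87 in lung, the highest of the others. Other esophagus calls were higher in another organ: 26 had their highest mean in liver, 14 in pancreas, 12 in intestine and 10 in lung. For Bmp4, lung at 10.02 lay above the esophagus at 8.63. For Osr2, intestine at 11.82 lay above the esophagus at 9.49, and for Flrt2, pancreas at 10.54 lay above 8.50. Among the stomach genes, Tspan8 was shared with the intestine (11.11 and 11.08), Onecut2 was higher in intestine (10.90) and liver (10.25) than in stomach (9.02), and Hnf4a was highest in liver (11.02). Gata6 was lowest in the esophagus, at 7.58, against 10.16 in stomach and 10.62 to 11.23 in the other organs. Pdx1 was highest in pancreas (10.47), Ihh stood at 9.14 in stomach and 9.22 in intestine, and Vsig2 was highest in stomach (8.92), followed by lung (7.25).

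**Figure D4:**
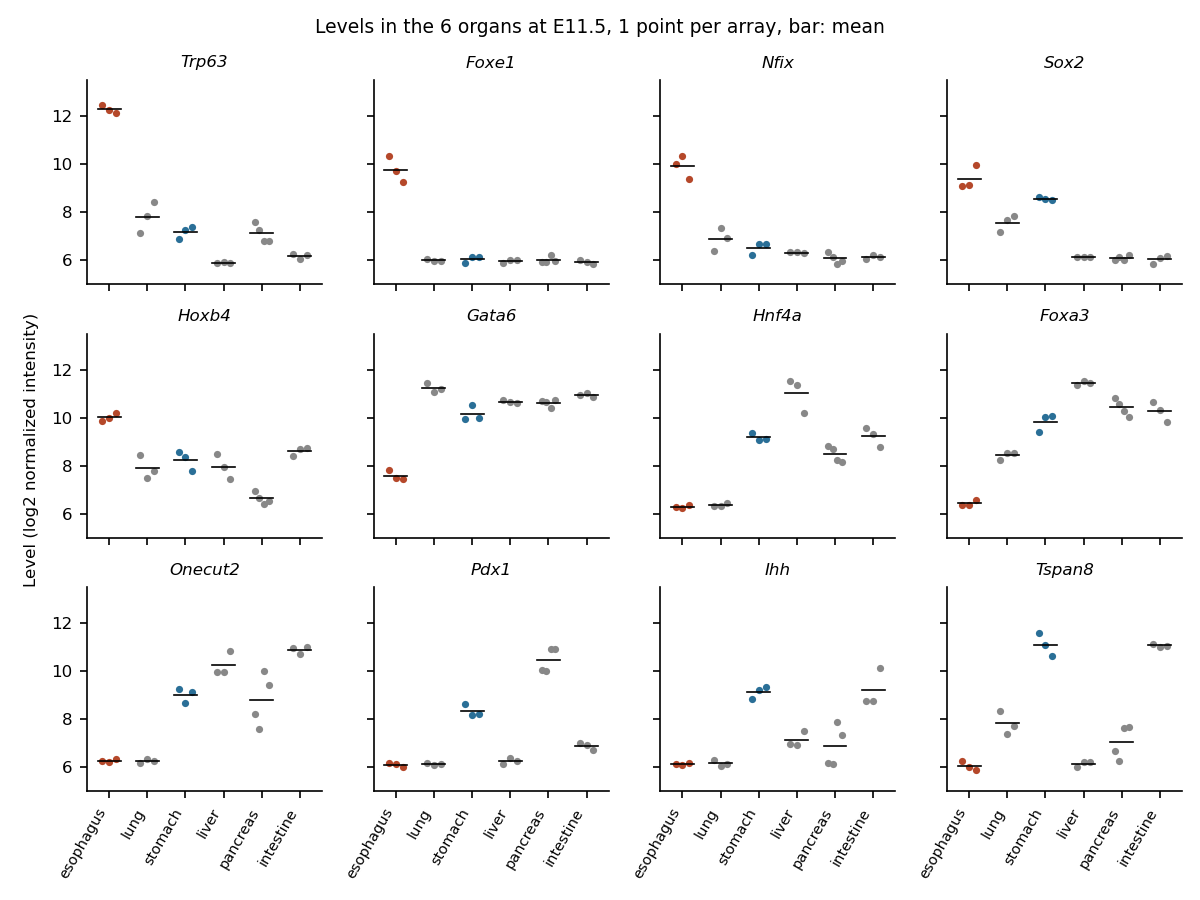
Levels (log2 normalized intensity, vertical axes) of 12 genes on the arrays of the 6 organs at E11.5, 1 point per array with the mean as a bar. Esophagus is red, stomach blue and the other organs grey. Foxe1 is high on the esophagus arrays, Gata6 is lowest there, and Tspan8 is high in stomach and intestine.

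The departure of stomach 1 was shared with lung 1. Stomach 1 stood 2-fold or more from the mean of stomach 2 and 3 for 410 tested genes, whereas stomach 2 and 3 differed that much for 19. For 335 of the 410 genes lung 1 departed from lung 2 and 3 by 2-fold or more in the same direction, upward for 308. Across genes, which are not independent replicates, the 2 departures correlated at r = 0.879. The esophagus arrays lay on the side of stomach 1 for the 308 genes, with mean deviations of 0.32, 0.432 and 0.342 from the mean of all arrays against 0.894 for stomach 1 and -0.513 and -0.641 for stomach 2 and 3. The 335 genes, which were picked for a wide spread within the stomach, held 10 of the esophagus calls, with Dcn and Tox3 among them, and 2 of the stomach calls, beside 5.73% of all genes called. Without stomach 1, 164 further genes were called higher in esophagus, and 102 of them belonged to the 308. Dcn was lower on stomach 1 and on lung 1 than on their group's other arrays, at -1.08 and -1.20.

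**Figure D5:**
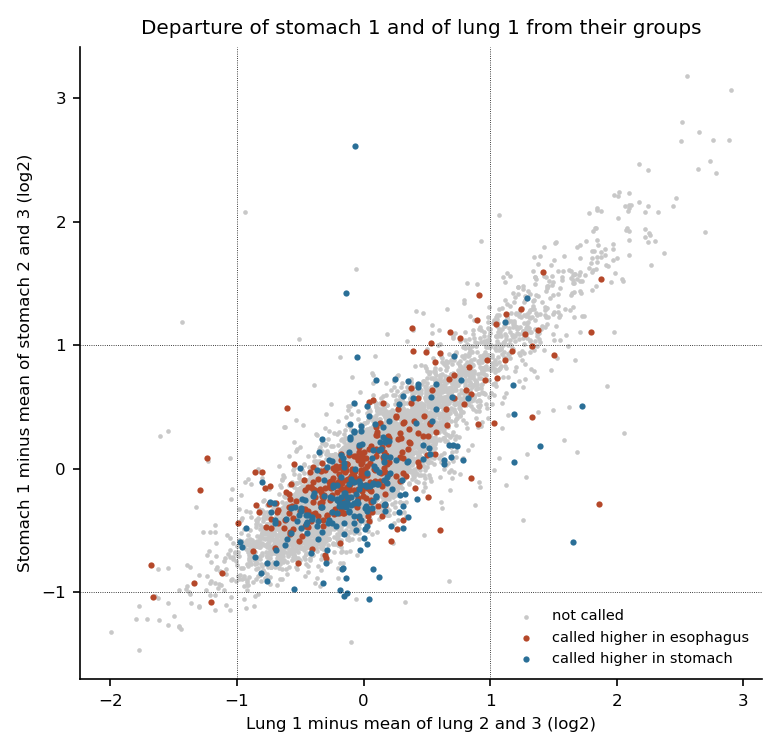
Difference of stomach 1 from the mean of stomach 2 and 3 (log2, vertical axis) against that of lung 1 from the mean of lung 2 and 3 (log2, horizontal axis) for each gene tested. Red and blue points are genes called higher in esophagus and in stomach, grey points genes not called, and dotted lines mark 2-fold. The points run along a rising line, r = 0.879, and few called genes lie beyond both 2-fold lines.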

How the data were processed

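Total RNA of 28 samples was amplified, labelled with biotin and hybridised, 1 array per sample, per the labels. The deposited values are probe intensities; the submitters' processing notes name BeadStudio, while its background subtraction and normalization are not stated. Scale was checked on the values: linear and not centred per gene. A second deposited table was not used, since no label ties its columns to samples, so detection rests on 1361 sensory receptor probes.

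Deposited intensities of 25697 probes were background-corrected with normexp (offset 50), quantile normalized over 28 arrays and put on the log2 scale. Of the probes, 23978 carried 1 gene symbol, 0 several and 1719 none, in the platform annotation. Each symbol kept its probe of highest mean, and a gene was tested if detected on every array of at least 1 of 9 groups, which left out 6940 symbols. limma 3.58.1 in R 4.3.3 fitted 9 group means with eBayes. The fit was tested on simulated data.

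Genes named are the 12 largest called differences measured on both sides and the 8 largest bounds in each direction, up to 4 called members per list and direction, and a fixed set of foregut genes. Further list members are named where the text says so. The comparison, lists and rule were chosen with earlier results of these data known. Replicate numbers did not pair the arrays: deviations of same-numbered arrays correlated at 0.0261, -0.157 and 0.0567. Alternatives changed the background step, offset, normalization, filter, probe choice, model and arrays used.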

Additional observations from a re-analysis of the deposited data

How the results depend on the processing

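Over 22 alternative settings the count of genes higher in esophagus was 288 to 484, against 322, and that of genes higher in stomach 223 to 337, against 231. The 484 came with the intensity class as a block, where 268 were higher in stomach. Within the class of arrays with intensities over 20000 the comparison is that without stomach 1, and the other class has no esophagus array. Leaving out 1 array in turn gave 288 to 458 esophagus genes and 225 to 259 stomach genes, and 246 and 191 genes were called in all 6 such fits. With the replicate number as a block the counts were 322 and 231, and no call changed. An offset of 16 gave 449 and 337, and array weights 471 and 290. Leaving out the 335 genes on which stomach 1 and lung 1 depart together, an alternative chosen after seeing the data, left 312 and 229. Of 108 named genes tested, 100 were called and 86 kept the call under all 22 settings, and 0 reversed. Those that lost it under at least 1 setting were Sox9, Tox3, Hoxa2, Jag2, Rarb, Ccnd2, Krt8, Espn, Hkdc1, Pyy, Fzd7, Plk1, Osr1 and Esam. Sox2, Gata4 and Nkx2-1 were called under at least 1 setting. The stomach's share of the calls was 35.6% to 45.1%.

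With 3 arrays a group, their number limits the precision, and an exact permutation test of 3 against 3 could not go below p = 0.1, so only the model across genes can pass the threshold. Probes near the receptor threshold give bounds only. Of 179 further probes of called genes detected on 3 or more of the 6 arrays, 178 had the sign of the named probe and 72 were also 2-fold or more. Rnase4 was the exception.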
